A study of Mus musculus with 12 samples.

Results

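The genes described here encode the proteins of the mitochondrial ribosome. They were taken as every gene symbol made of Mrpl or Mrps, a number and at most 1 further letter, and 77 of the 20632 symbols in the count tables met that rule. By name, 48 belong to the large subunit (Mrpl) and 29 to the small subunit (Mrps). All 77 had enough counts to be tested, so none was left out. They were measured in the gonadal (peri-uterine) white fat of mice at E17.5 of pregnancy, by 3' RNA sequencing of total RNA. The 12 libraries form 3 groups of 4. KO Treg mice carried the Tnfrsf11a (Rank) knockout with Foxn1 Cre and had the treatment labelled Treg. KO vehicle mice had the same genotype and were given vehicle. WT vehicle mice were the Cre-negative counterparts, labelled wildtype, and were also given vehicle. Pregnancy, stage and tissue were thus shared by all 3 groups, and the labels give no strain or age. Foxn1 is known as a gene of thymic epithelium, so libraries of fat do not show a deletion driven by it. The labels carry a separate number for each library, taken as 1 animal each; if that does not hold, p-values measure only the spread between these libraries.

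Mitochondrial ribosomes translate the few messages of the mitochondrial genome, which encode core subunits of the respiratory chain and the ATP synthase. Their RNA is made inside the mitochondrion, but their proteins are encoded in the nucleus, made in the cytosol and imported. Many of these proteins have a counterpart in bacterial ribosomes, and others are found in mitochondria alone. In fat, mitochondria are densest in thermogenic (brown and beige) adipocytes. A few symbols mislead about position: the products of Mrps18a and Mrps30 sit in the large subunit in mammalian structures, and the product of Mrps36 is now assigned to the 2-oxoglutarate dehydrogenase complex. They are kept here under the subunit their symbol names.

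Promoter sequence was examined because nuclear genes for mitochondrial proteins are known targets of factors that bind ETS (GABP), NRF1 and YY1 motifs. RefSeq promoters (GRCm38.p6, 250 bases before to 50 after the gene start) matched 68 of the 77 genes. Mrps35, Mrpl54, Mrpl4, Mrpl19, Mrps28, Mrpl38, Mrpl13, Mrps34 and Mrpl15 were not matched. Of the 6 promoters printed here, 4 belong to genes among those of smallest p in the group comparisons (Mrps15, Mrps18a, Mrpl47 and Mrps6). None of these genes passed the edgeR test. The others belong to a pair with 2 kinds of motif each (Mrps18b and Mrpl33). Each of the 6 runs 5′ to 3′ on the strand of its gene. Capitals mark exact matches to the ETS core CCGGAAG, the NRF1 core GCGCATGC or the YY1 core AAGATGGC on either strand. Matches of the ETS and YY1 cores can share their AAG, and the NRF1 core shares GCATGC with its own reverse complement, so that a site can be matched on both strands.
Mrps15 (chr4:126046678-126046977, + strand, small-subunit gene with the smallest p in KO vehicle against WT vehicle, no match): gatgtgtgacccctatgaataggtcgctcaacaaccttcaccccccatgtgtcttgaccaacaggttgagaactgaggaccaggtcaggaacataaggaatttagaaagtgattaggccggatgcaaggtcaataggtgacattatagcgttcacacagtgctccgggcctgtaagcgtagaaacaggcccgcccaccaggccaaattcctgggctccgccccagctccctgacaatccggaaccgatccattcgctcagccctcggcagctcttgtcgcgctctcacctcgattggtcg
Mrps18a (chr17:46110754-46111053, + strand, ETS core at -26 to -20 and YY1 core at 12 to 19 from the gene start): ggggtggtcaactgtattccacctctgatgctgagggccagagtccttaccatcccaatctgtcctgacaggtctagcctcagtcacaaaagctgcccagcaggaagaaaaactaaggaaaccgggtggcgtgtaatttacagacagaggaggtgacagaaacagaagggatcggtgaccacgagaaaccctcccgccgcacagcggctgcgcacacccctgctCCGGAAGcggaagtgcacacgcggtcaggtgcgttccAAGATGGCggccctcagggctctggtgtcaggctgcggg
Mrpl47 (chr3:32736706-32737005, - strand, no match): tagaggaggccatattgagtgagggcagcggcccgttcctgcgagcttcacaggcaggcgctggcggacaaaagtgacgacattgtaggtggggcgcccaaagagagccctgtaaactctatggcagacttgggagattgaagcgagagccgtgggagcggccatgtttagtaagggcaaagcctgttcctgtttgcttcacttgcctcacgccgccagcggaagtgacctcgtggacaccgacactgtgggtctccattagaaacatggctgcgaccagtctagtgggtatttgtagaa
Mrps6 (chr16:92058086-92058385, + strand, most abundant of the 77, no match): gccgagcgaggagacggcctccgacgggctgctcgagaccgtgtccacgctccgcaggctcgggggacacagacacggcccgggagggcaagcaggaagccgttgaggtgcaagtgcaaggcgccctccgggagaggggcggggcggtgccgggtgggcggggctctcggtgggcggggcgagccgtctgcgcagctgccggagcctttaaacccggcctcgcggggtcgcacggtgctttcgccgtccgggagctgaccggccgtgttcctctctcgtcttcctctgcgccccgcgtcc
Mrps18b (chr17:35916391-35916690, - strand, NRF1 core in reverse at -223 to -216 and at 29 to 36, ETS core in reverse at 44 to 50): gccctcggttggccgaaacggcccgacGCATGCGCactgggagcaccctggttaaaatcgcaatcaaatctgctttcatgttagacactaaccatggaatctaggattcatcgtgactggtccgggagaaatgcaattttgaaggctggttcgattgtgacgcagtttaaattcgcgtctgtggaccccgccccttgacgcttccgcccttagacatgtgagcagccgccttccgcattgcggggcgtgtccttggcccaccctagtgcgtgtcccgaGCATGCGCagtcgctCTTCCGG
Mrpl33 (chr5:31613701-31614000, + strand, NRF1 core at -12 to -5 directly before an ETS core at -3 to 4): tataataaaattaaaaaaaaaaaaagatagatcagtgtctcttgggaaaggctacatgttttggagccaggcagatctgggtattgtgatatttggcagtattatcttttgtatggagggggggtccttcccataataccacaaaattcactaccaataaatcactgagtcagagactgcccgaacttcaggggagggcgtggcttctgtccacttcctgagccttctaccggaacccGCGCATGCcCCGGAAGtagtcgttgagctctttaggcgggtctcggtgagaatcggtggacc

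Of the 68 promoters, 24 (35.3%) held the ETS core, 12 (17.6%) the YY1 core and 8 (11.8%) the NRF1 core. Among the 9304 tested genes with a matched promoter, these 68 included, the shares were 17.9%, 4.75% and 5.49% in the same order. Among all 27025 promoters of the table they were 9.12%, 2.88% and 2.80%. At least 1 of the 3 cores was present in 36 of the 68 promoters (52.9%), against 25.7% of the promoters of tested genes. The other motifs searched gave shares close to those of tested genes: CCAAT was found in 39.7% against 38.4%, and TATAAA in 5.88% against 7.04%. The median GC content was 58.2%, against 61% for tested genes. Of the 28 ETS matches, 23 began at or after base -60, and most YY1 matches lay just after the gene start. A match describes these letters in this window and not a bound site, and no match says nothing about a factor. In KO vehicle against WT vehicle, the median log2 fold change was -0.11 for the 36 genes with a core and -0.10 for the 32 without. It was 0.03 (16 of 36 below 0) with a core and 0.07 (7 of 32 below 0) without in KO Treg against KO vehicle. For KO Treg against WT vehicle the values were -0.07 (28 of 36 below 0) with a core and -0.02 (19 of 32 below 0) without. None of these pairs of medians was tested.

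**Figure D1:**
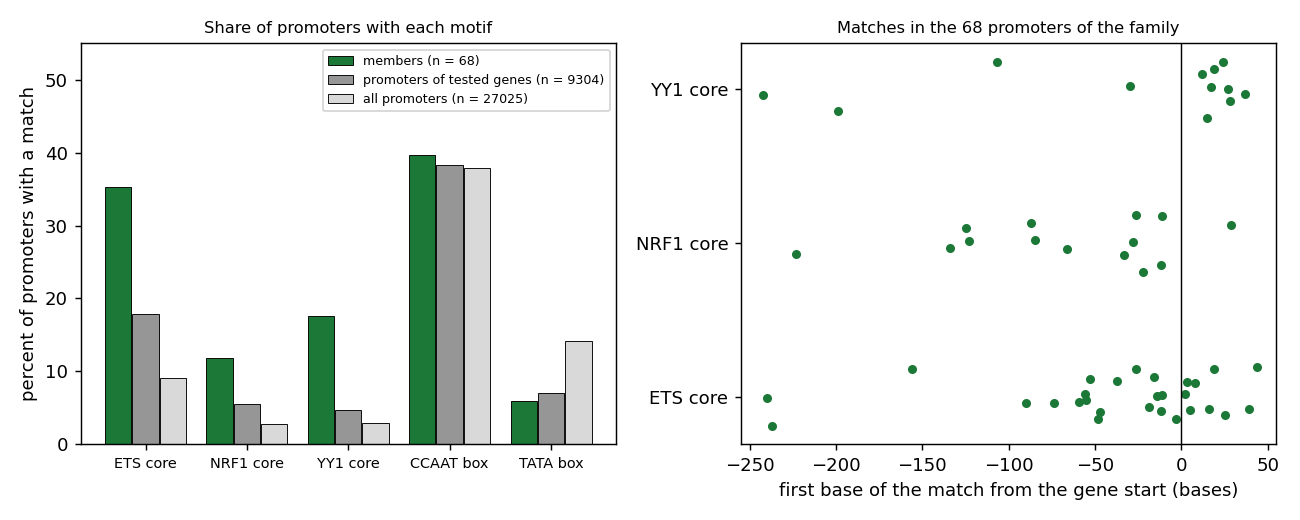
Left, the share of promoters (percent, y axis) with an exact match to each motif, for the 68 promoters of the mitochondrial ribosomal protein genes, the promoters of tested genes and all promoters; right, the first base of each match from the gene start (bases, x axis) in the 68 promoters. The ETS bar of the family stands at 35.3% beside 17.9% for tested genes, the CCAAT bars are nearly level, and the ETS points gather near the gene start.

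Library totals ran from 5551967 to 12972655 counts, and the 77 genes took 0.563% to 0.692% of them. A count of 3 corresponded to 0.231 to 0.54 CPM (a count relative to the TMM-scaled total of its library), a limit of counting error alone. Every pair of libraries differed by more than sampling noise, with a chi-square of at least 12.5 per degree of freedom. Tnfrsf11a itself was at 7.78 ± 1.92 CPM in KO Treg, 7.61 ± 1.11 CPM in KO vehicle and 8.20 ± 2.51 CPM in WT vehicle (SD, n = 4 each), which checks nothing about a deletion in the thymus. All 8 adipocyte markers were detected in each group, with summed levels of 32282 to 47739 CPM in KO Treg, 41299 to 49552 CPM in KO vehicle and 31403 to 46687 CPM in WT vehicle. Placental markers stood apart in KO Treg 2 (270 CPM summed) and KO vehicle 1 (105 CPM), against at most 31.9 CPM elsewhere; 6 of the 8 were detected in KO Treg, 7 in KO vehicle and 7 in WT vehicle. All 8 thermogenic adipocyte markers were detected in each group, with sums of 128 to 476 CPM in KO Treg, 103 to 2298 CPM in KO vehicle and 166 to 5842 CPM in WT vehicle. Results are therefore also given without the libraries richest in placental markers or in Ucp1, the uncoupling protein of thermogenic fat. The animal numbers in the titles form a lower (67) and a higher (69) series, which the labels do not call a batch: KO Treg and WT vehicle have 2 animals in each, and KO vehicle has its 4 in the lower one.

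Averaged over the 12 libraries, read abundances ran from 1.75 CPM for Mrps28, a small-subunit protein, to 889 CPM for Mrps6, a small-subunit protein with a bacterial counterpart. The median was 59.2 CPM with quartiles of 36.2 and 82.2 CPM, and 69 of the 77 genes lay within 10 to 200 CPM. Reads of this assay come from transcript ends and are not scaled by length, so these values describe the reads behind each gene, and no order of expression among genes is drawn from them. Mrps27, a pentatricopeptide-repeat protein of the small subunit, averaged 5.01 ± 1.75 CPM in KO Treg, 5.82 ± 1.62 CPM in KO vehicle and 6.86 ± 2.08 CPM in WT vehicle, and Mrpl53 218 ± 37.6, 210 ± 36.8 and 204 ± 43.9 CPM in the same order (SD, n = 4 each). Mrpl17 and Mrpl33, large-subunit proteins, averaged 197 ± 22.9 and 215 ± 21.8 CPM in KO Treg, 198 ± 28.7 and 203 ± 33.2 CPM in KO vehicle, and 183 ± 28.8 and 206 ± 32.5 CPM in WT vehicle (SD, n = 4 each).

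Animals of 1 group differed about as much in this family as in other genes of like level. The within-group SD of log2 CPM had a median of 0.22 over the 77 genes, the same to 2 decimals as the 0.22 of all tested genes of like level (mean log2 CPM of 4 to 7), beside 0.28 for all genes tested, 0.27 for nuclear subunits of oxidative phosphorylation and 0.16 for cytosolic ribosomal proteins. Among genes of at least 10 CPM, the least variable were Mrps12, the protein of the decoding centre, Mrpl14, at the interface of the subunits, and Mrps33, a mitochondria-specific small-subunit protein, with SDs of 0.12 to 0.13. Mrps12 was at 59, 66, 72 and 66.9 CPM in KO Treg, 60.7, 65.1, 71.8 and 71.1 CPM in KO vehicle and 72.5, 61.1, 61.1 and 59 CPM in WT vehicle. Mrpl14 averaged 92.1 ± 7.54 CPM in KO Treg, 90.4 ± 10.2 CPM in KO vehicle and 93.1 ± 5.07 CPM in WT vehicle (SD, n = 4 each). The same values for Mrps33 were 70.3 ± 3.76, 63.9 ± 6.25 and 67.6 ± 7.53 CPM. The levels of all 3 overlapped across the groups. The most variable of all 77 were Mrps28 (SD 0.82) and Mrps27 (0.44), which average below 10 CPM. Among genes of at least 10 CPM they were Mrpl12 (SD 0.40), Mrps22, a mitochondria-specific small-subunit protein (0.39), and Mrps6 (0.32).

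In the mean level of the family, the libraries of the 3 groups overlapped. The mean log2 CPM over the 77 genes was 5.69 ± 0.07 in KO Treg, 5.64 ± 0.16 in KO vehicle and 5.76 ± 0.15 in WT vehicle (SD, n = 4 each). By library, the mean log2 CPM of the 77 genes was 5.70, 5.68, 5.61 and 5.77 in the KO Treg libraries, 5.52, 5.59, 5.87 and 5.57 in KO vehicle, and 5.95, 5.78, 5.70 and 5.60 in WT vehicle. KO vehicle thus held both the lowest library and the next to highest, and the ranges of the 3 groups overlapped. Counted gene by gene, 36, 37, 26 and 56 of the 77 stood above their own mean over the 12 libraries in KO Treg, 15, 27, 66 and 14 in KO vehicle, and 71, 52, 38 and 22 in WT vehicle. WT vehicle 1 and KO vehicle 3 were high across nearly the whole family, and KO vehicle 1 and KO vehicle 4 were low. The 74 nuclear subunits of oxidative phosphorylation were also high in WT vehicle 1 and KO vehicle 3, with 73 and 71 above their own mean, and low in KO vehicle 1, WT vehicle 4 and KO vehicle 4, with 1, 3 and 7. Of 76 cytosolic ribosomal protein genes tested, 23 were above their own mean in WT vehicle 1 and 30 in KO vehicle 3. Their lowest library was KO vehicle 1 with 14, as for the oxidative phosphorylation subunits, and their highest was KO Treg 3 with 72. Ucp1 was at 0.711, 43.2, 1.40 and 0.121 CPM in KO Treg, 0.457, 779, 216 and 0.203 CPM in KO vehicle, and 1968, 0.965, 0.539 and 47.4 CPM in WT vehicle. The 3 libraries with the most Ucp1 were WT vehicle 1, KO vehicle 2 and KO vehicle 3. They had 71, 27 and 66 of the 77 genes above their own mean, in that order. The part of thermogenic cells in the level of the family was not tested, and in whole tissue fewer cells of a type and less RNA per cell cannot be told apart.

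**Figure D2:**
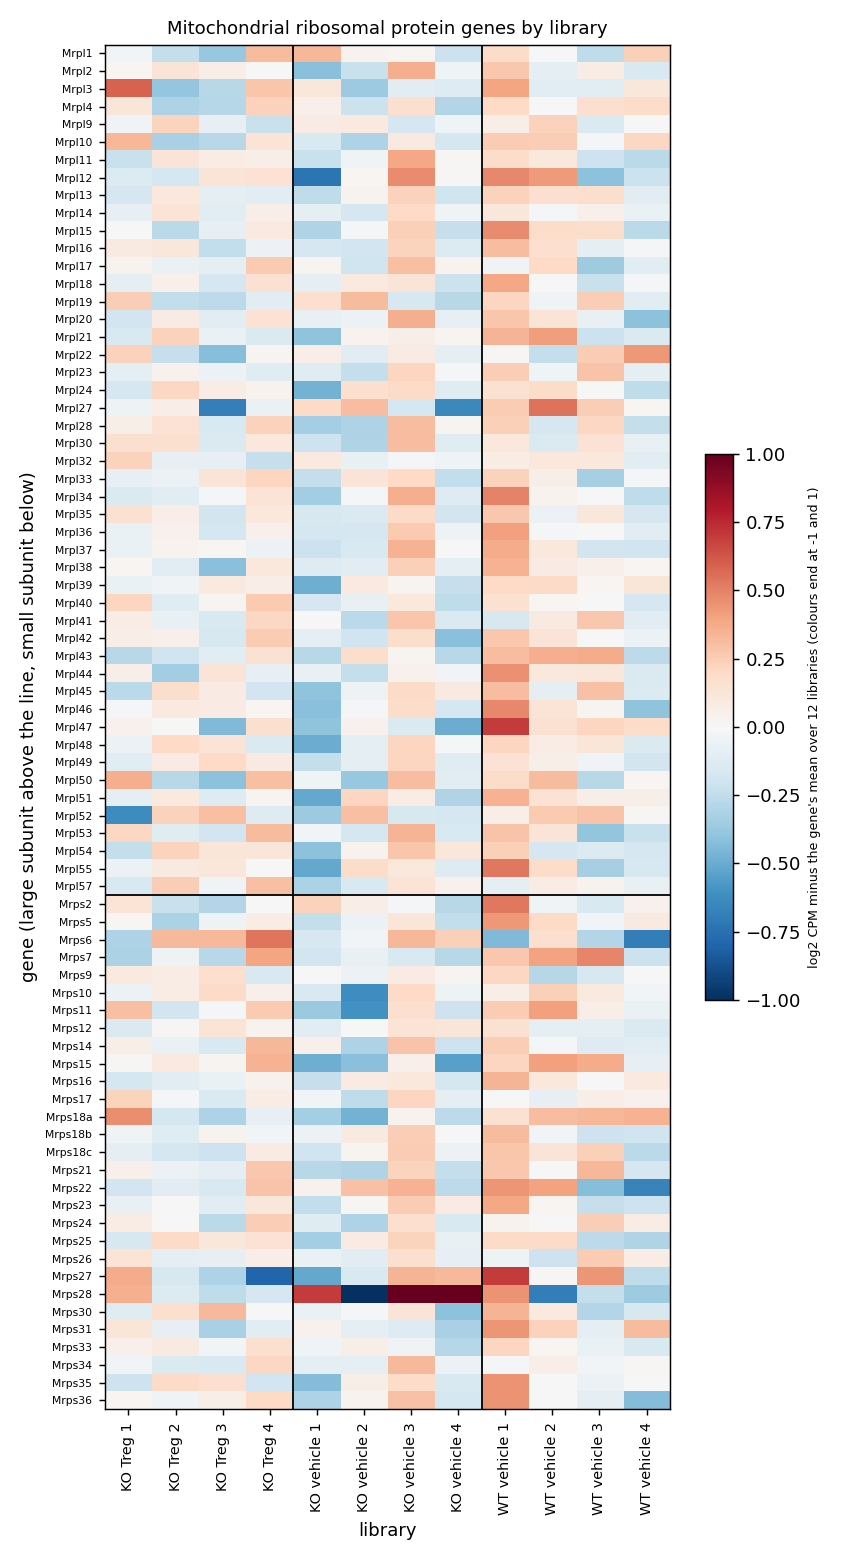
Each row is 1 of the 77 genes (large-subunit symbols above the line, small-subunit symbols below), each column 1 library (KO Treg, KO vehicle and WT vehicle, 4 each), and the colour is log2 CPM minus the mean of that gene over the 12 libraries, ending at -1 and 1. The columns WT vehicle 1 (71 of 77 genes above their own mean) and KO vehicle 3 (66) are mostly red, and KO vehicle 1 (15) and KO vehicle 4 (14) mostly blue.

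**Figure D3:**
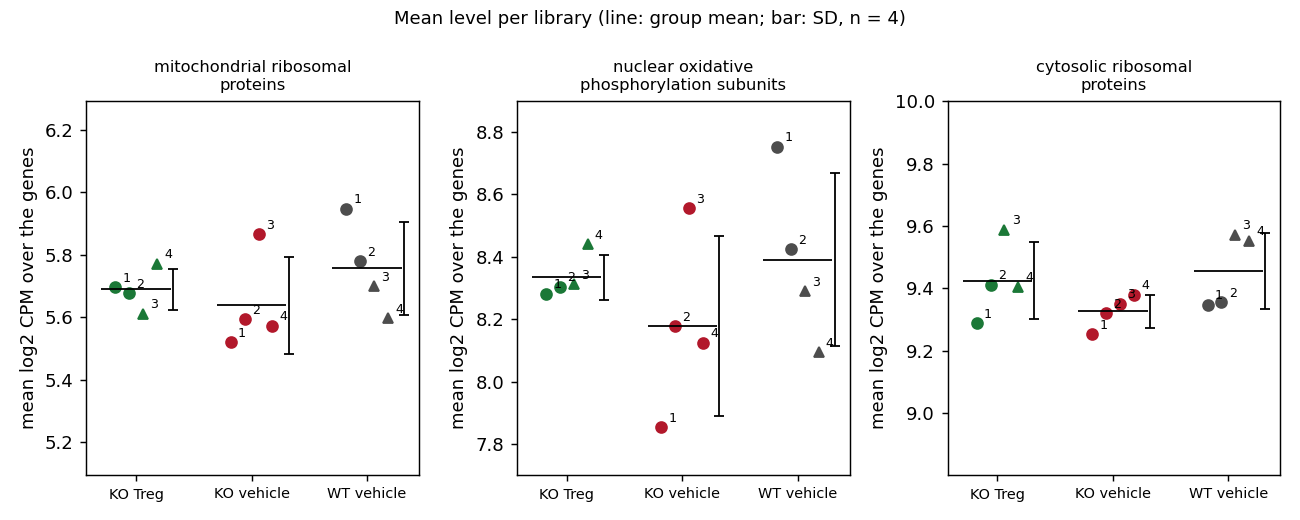
Mean log2 CPM per library (y axis) over the 77 mitochondrial ribosomal protein genes, 74 nuclear subunits of oxidative phosphorylation and 76 cytosolic ribosomal protein genes, with the group mean (line) and SD (bar, n = 4); circles are the lower and triangles the higher number series, and digits are replicates. In the first panel the group means are 5.69 for KO Treg, 5.64 for KO vehicle and 5.76 for WT vehicle, and the libraries of the 3 groups overlap.

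KO vehicle against WT vehicle asked how the fat of vehicle-treated knockouts differed in pregnancy. No mitochondrial ribosomal protein gene passed the test, while most stood slightly lower in KO vehicle. Of the 77 genes, 63 had a log2 fold change below 0 and 14 above, with a median of -0.11 (a range of -0.58 to 0.77), where all 12175 genes tested had a median of 0.00 and 49.2% above 0. The differences were small: 73 of 77 lay within 0.5 of 0 on the log2 scale. By symbol, 43 of 48 large-subunit genes (median -0.12) and 20 of 29 small-subunit genes (median -0.09) were below 0. The split by origin was similar, with 40 of 48 genes with a bacterial counterpart (median -0.11) and 23 of 29 mitochondria-specific genes (median -0.10) below 0.

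With edgeR, 0 of 77 were called at an adjusted p of 0.05, where 0.279% of all genes were. At an unadjusted p of 0.05, 6 of 77 (7.79%) passed, all lower in KO vehicle, against 12.4% of all genes. DESeq2 called 1 of 77 against 2.13% of all genes, and limma voom called 0 against 0.361%. The groups did not overlap for 2 genes lower in KO vehicle, where 2.33% of all genes were so placed, and for 0 genes higher, where 4.17% were. Each of these shares is near or under its background.

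The smallest p belonged to Mrps15, a small-subunit protein with a bacterial counterpart that contacts the ribosomal RNA. It was at 80.5, 84.5, 117 and 77.3 CPM in KO vehicle and 131, 150, 146 and 106 CPM in WT vehicle. Of these, 3 KO vehicle libraries lay below all of WT vehicle, and KO vehicle 3 lay above WT vehicle 4, so the groups overlapped. The log2 fold change was -0.57 ± 0.15 SE with an edgeR adjusted p of 0.128, above the threshold. This was the gene that DESeq2 called (log2 fold change -0.58, DESeq2 adjusted p = 0.0311); over all alternatives its adjusted p ran from 0.0311 to 0.337. Mrps18a was at 51.3, 46.8, 66.4 and 54.1 CPM in KO vehicle and 72.1, 80.3, 81.8 and 82.9 CPM in WT vehicle. Its groups did not overlap, and the WT vehicle libraries were closer to each other than those of KO vehicle. Its log2 fold change was -0.54 ± 0.16 SE (edgeR adjusted p = 0.165, range over alternatives 0.066 to 0.418).

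Mrpl47, whose bacterial counterpart lies at the exit of the peptide tunnel, was at 11.2, 15.3, 13.4 and 10.5 CPM in KO vehicle and 24.2, 16.5, 17.2 and 16.9 CPM in WT vehicle. Its groups did not overlap either, and WT vehicle 1 stood well above the rest. Its log2 fold change was -0.58 ± 0.19 SE (edgeR adjusted p = 0.188), or -0.44 without WT vehicle 1. The exons of Mrpl47 overlap those of Actl6a and Ndufb5 on the opposite strand, outside its last 500 bases, so reads of these genes cannot be told apart where they overlap. The remaining genes below an unadjusted p of 0.05 were Mrps7, Mrps11 and Mrps31, small-subunit proteins. Mrps7 averaged 39.6 ± 2.31 CPM in KO vehicle and 53.6 ± 10.8 CPM in WT vehicle, Mrps11 19 ± 4.39 and 25.2 ± 3.68 CPM, and Mrps31 9.86 ± 1.04 and 12.7 ± 1.94 CPM, in the same order (SD, n = 4 each).

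Of the genes above 0, none had an unadjusted p under 0.05. Mrps6 was at 772, 847, 1085 and 1017 CPM in KO vehicle and 634, 966, 705 and 533 CPM in WT vehicle, with a log2 fold change of 0.39 ± 0.20 SE and a 95% interval of -0.03 to 0.81 (edgeR adjusted p = 0.449), or 0.20 within the lower number series alone. Only WT vehicle 2 reached into the range of KO vehicle. Mrps28 had 23, 3, 29 and 33 counts in KO vehicle and 27, 8, 7 and 9 counts in WT vehicle. Its log2 fold change of 0.77 ± 0.51 SE rested on these low counts (edgeR adjusted p = 0.59), and it was 1.46 without the 3 libraries richest in Ucp1. Mrpl17 was at 195, 166, 236 and 196 CPM in KO vehicle and 187, 219, 150 and 178 CPM in WT vehicle, with a log2 fold change of 0.11 ± 0.14 SE (edgeR adjusted p = 0.823).

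The size of the family's median in this comparison depended on single libraries. It was -0.22, with 71 of 77 genes below 0, without KO vehicle 3, and -0.06, with 53 below 0, without WT vehicle 1. Within the lower number series alone (4 KO vehicle against 2 WT vehicle libraries) the median was -0.23, with 71 below 0. Without the 3 libraries richest in Ucp1 it was -0.16, with 62 below 0, and without the 2 libraries with placental transcripts -0.09, with 56 below 0. Markers of dividing cells moved with the groups: all 8 were detected in each, and their sum was 31.6 to 40.6 CPM in KO vehicle against 14.9 to 26.7 CPM in WT vehicle, a difference whose part in these values was not tested. The family's median stayed below 0 under every scaling tried, at -0.07 with library totals, -0.12 with RLE and -0.12 with upper quartile scaling. All genes tested had medians of 0.04, -0.01 and -0.01 under these scalings, in the same order.

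**Figure D4:**
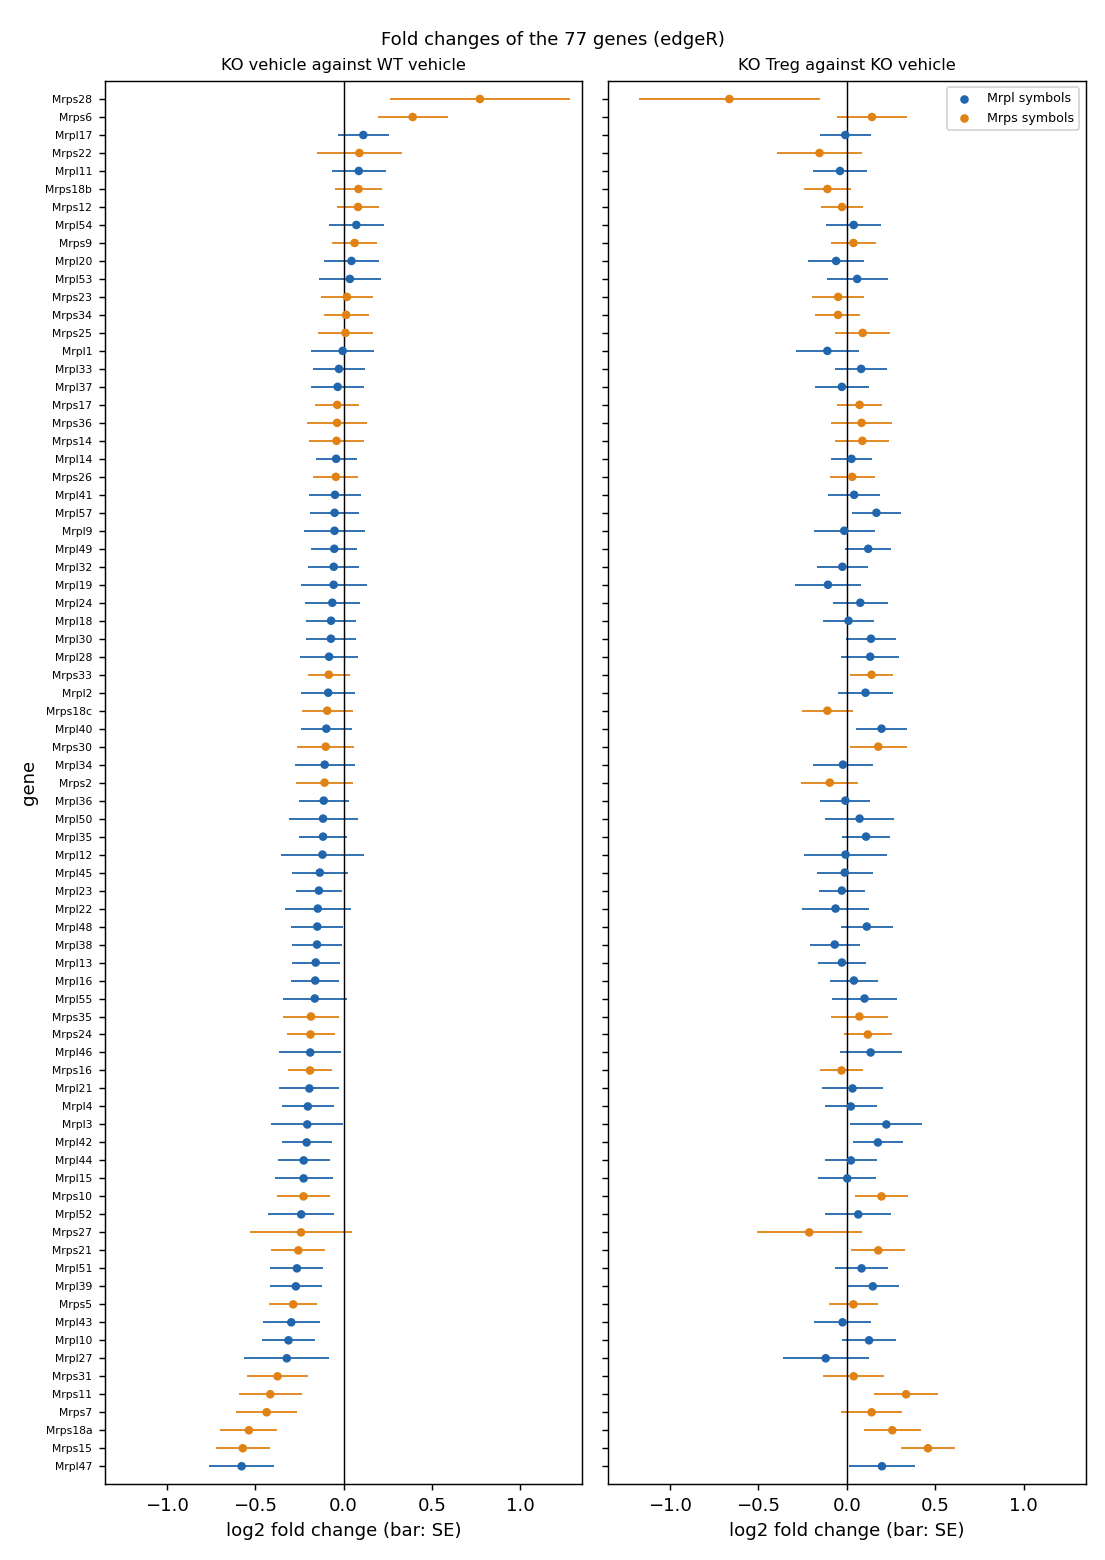
Log2 fold change (x axis, bar: SE) of each of the 77 genes, in KO vehicle against WT vehicle on the left and in KO Treg against KO vehicle on the right, ordered by the left panel, with large-subunit symbols in blue and small-subunit symbols in orange. On the left 63 of 77 points lie below 0; on the right 49 lie above 0. The panels share the KO vehicle libraries.

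KO Treg against KO vehicle asked how the treatment labelled Treg changed the fat of knockouts. No gene of the family passed the test. Of the 77 genes, 49 had a log2 fold change above 0, with a median of 0.04 (a range of -0.66 to 0.46), where all genes tested had a median of 0.00 and 49.7% above 0. With edgeR 0 of 77 were called, against 0.00821% of all genes. At an unadjusted p of 0.05, 1 of 77 passed, against 8.77%. DESeq2 called 0 of 77, against 0.501% of all genes, and limma voom called 0, against 0.00821%. The groups did not overlap for 0 genes in either direction, where 3.03% of all genes were placed lower and 2.01% higher.

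The 1 gene below an unadjusted p of 0.05 was Mrps15, at 114, 121, 115 and 144 CPM in KO Treg and 80.5, 84.5, 117 and 77.3 CPM in KO vehicle. KO vehicle 3 lay within the range of KO Treg, and the other KO vehicle libraries lay below it. The log2 fold change was 0.46 ± 0.15 SE with a 95% interval of 0.13 to 0.78 (edgeR adjusted p = 0.393). This comparison uses the same KO vehicle libraries as the one before, so a low value in them moves both in opposite directions. Mrps11, a small-subunit protein with a bacterial counterpart, was at 27.5, 19.5, 21.9 and 26.7 CPM in KO Treg and 17.1, 14.6, 24.9 and 19.3 CPM in KO vehicle, with overlapping groups. Its log2 fold change was 0.34 ± 0.18 SE (edgeR adjusted p = 0.633), or 0.51 without KO vehicle 3. Mrps18a was at 89.8, 57.6, 52.5 and 61.2 CPM in KO Treg, and its log2 fold change against KO vehicle was 0.26 ± 0.16 SE (edgeR adjusted p = 0.705). That value rested on KO Treg 1 and was 0.08 without it.

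On the lower side, the smallest p belonged to Mrps28, with 17, 12, 8 and 11 counts in KO Treg against 23, 3, 29 and 33 in KO vehicle. The log2 fold change of Mrps28 was -0.66 ± 0.51 SE, with an edgeR adjusted p of 0.782, and it was -1.02 without KO vehicle 2 and -0.43 without KO vehicle 4. Mrps18b and Mrps18c, which share a bacterial ancestor with Mrps18a and sit in the small subunit, were next. Mrps18b averaged 115 ± 5.11 CPM in KO Treg and 124 ± 11.8 CPM in KO vehicle (SD, n = 4 each), a log2 fold change of -0.11 ± 0.13 SE (edgeR adjusted p = 0.887). For Mrps18c the averages were 32.5 ± 3.05 CPM in KO Treg and 35.1 ± 4.71 CPM in KO vehicle, a log2 fold change of -0.11 ± 0.15 SE (edgeR adjusted p = 0.902). Both turned slightly above 0, to 0.01 and 0.05, without the 3 libraries richest in Ucp1. The 3 genes of this name thus showed no common direction, and none passed the test. Within the lower number series alone (2 KO Treg against 4 KO vehicle libraries) the family's median was 0.06, with 53 of 77 above 0. It was 0.15, with 65 of 77 above 0, without KO vehicle 3, and 0.01, with 43 above 0, without KO vehicle 1. A fit with a term for the series gave 0.09, with 62 above 0, and one without the 2 libraries with placental transcripts gave 0.02, with 40 above 0. Without the 3 libraries richest in Ucp1 the family's median was 0.17, with 69 above 0. With library totals as the scaling it was 0.00, with 39 above 0, where all genes tested had a median of -0.05. Marker sums that did not overlap between these groups were those of dividing cells (17.4 to 26.7 CPM in KO Treg, 31.6 to 40.6 CPM in KO vehicle) and of skeletal muscle (29.4 to 91.1 CPM in KO Treg, 96.5 to 143 CPM in KO vehicle), with all 8 markers of each detected in both groups. Their part in these values was not tested.

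**Figure D5:**
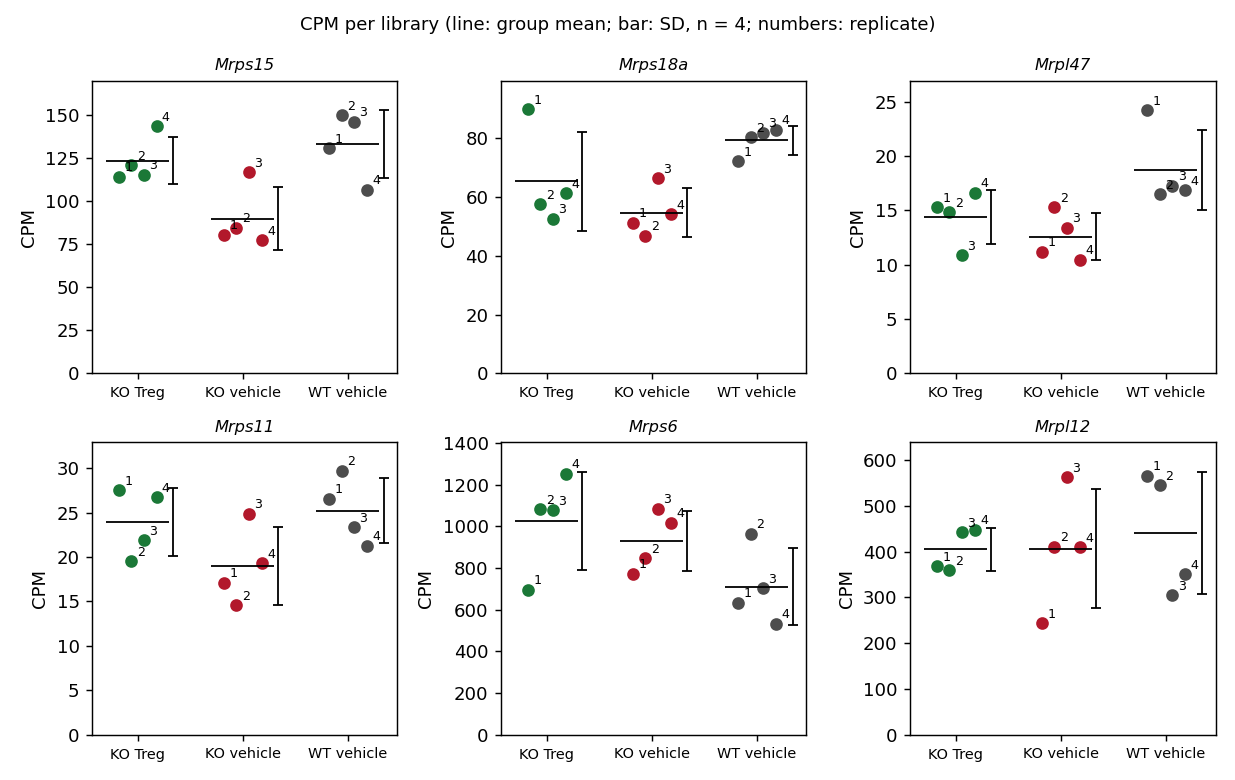
CPM per library (y axis, from 0) of Mrps15, Mrps18a, Mrpl47, Mrps11, Mrps6 and Mrpl12 in KO Treg, KO vehicle and WT vehicle, with the group mean (line) and SD (bar, n = 4); digits are replicates. Mrps18a and Mrpl47 are the panels in which the KO vehicle points all lie below the WT vehicle points, and Mrpl12 spans 244 to 562 CPM within KO vehicle.

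KO Treg was also set against WT vehicle, which differ in genotype and in treatment at once. No gene of the family passed the test. Of the 77, 23 had a log2 fold change above 0 and 54 below, with a median of -0.06, where all genes tested had a median of 0.00. With edgeR 0 of 77 were called, against 0% of all genes, DESeq2 called 0 of 77, against 0.00821%, and limma voom called 0, against 0%. At an unadjusted p of 0.05, 1 of 77 passed (Mrps6), against 2.87%. Again 0 genes had groups that did not overlap, where 0.821% of all genes were placed lower and 0.813% higher. The median was 0.01, with 38 genes below 0, without WT vehicle 1, and the same without the 3 libraries richest in Ucp1. Within the lower number series alone it was -0.17, with 64 below 0. It was -0.06, with 50 below 0, without the 2 libraries with placental transcripts, and -0.04, with 52 below 0, in a fit with a term for the series. Mean log2 CPM of the family was 5.69 in KO Treg and 5.86 in WT vehicle within the lower number series, and 5.69 and 5.65 within the higher one (n = 2 each).

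Mrps6 was at 697, 1081, 1077 and 1252 CPM in KO Treg and 634, 966, 705 and 533 CPM in WT vehicle. All but KO Treg 1 exceeded the whole of WT vehicle. The log2 fold change was 0.53 ± 0.20 SE with a 95% interval of 0.11 to 0.95, and the edgeR adjusted p was 1. It was 0.16 within the lower number series alone (2 libraries each), and 0.42 to 0.72 when single libraries were left out. Mrps6 shares 159 exon bases on the same strand with Slc5a3, the myo-inositol transporter gene, which has its own row in the tables, and 305 with Gm49711. These bases lie outside the last 500 of the gene. Slc5a3 averaged 223 ± 55.2 CPM in KO Treg, 173 ± 9.5 CPM in KO vehicle and 169 ± 42.2 CPM in WT vehicle (SD, n = 4 each). Mrpl57 and Mrps9, next on the higher side, had log2 fold changes of 0.12 ± 0.14 SE and 0.10 ± 0.13 SE (edgeR adjusted p = 1 for both). When single libraries were left out they ran 0.05 to 0.19 for Mrpl57 and 0.03 to 0.20 for Mrps9.

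On the lower side stood Mrpl47, Mrpl43, a mitochondria-specific large-subunit protein, and Mrps31. Mrpl47 was at 15.3, 14.8, 10.9 and 16.6 CPM in KO Treg, a log2 fold change of -0.38 ± 0.19 SE, or -0.22 without WT vehicle 1. Mrpl43 was at 48.1, 50.7, 53.9 and 64.7 CPM in KO Treg and 72.3, 75.1, 75.3 and 48.7 CPM in WT vehicle, a log2 fold change of -0.32 ± 0.16 SE, or -0.57 within the lower number series alone, with WT vehicle 4 far below its group. Mrps31 was at 11.7, 10.2, 8.55 and 9.96 CPM in KO Treg and 14.6, 12.6, 10.1 and 13.4 CPM in WT vehicle, a log2 fold change of -0.33 ± 0.17 SE. The edgeR adjusted p was 1 for all 3 genes.

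Genes with well-known places in the ribosome were examined whatever their values. Mrpl12 of the stalk was at 369, 359, 443 and 448 CPM in KO Treg, 244, 410, 562 and 410 CPM in KO vehicle and 565, 545, 305 and 350 CPM in WT vehicle. Its libraries were low in KO vehicle 1 and high in KO vehicle 3, WT vehicle 1 and WT vehicle 2, and the groups overlapped fully. Mrpl10, the base of the same stalk, averaged 61.2 ± 13.7 CPM in KO Treg, 56.2 ± 6.73 CPM in KO vehicle and 69.6 ± 5.75 CPM in WT vehicle. Mrpl44, which has a fold like that of RNase III, averaged 31.1 ± 4.44, 30.5 ± 2.45 and 35.6 ± 6.28 CPM in the same order. Mrpl45, which anchors the large subunit to the inner membrane, averaged 50.6 ± 7.46, 51 ± 8.63 and 56 ± 9.27 CPM. For these 3 genes the group ranges overlapped in every comparison. Mrps7, in the head of the small subunit, averaged 43.7 ± 10.6 CPM in KO Treg, beside the KO vehicle and WT vehicle values given above. Mrps22 was at 11, 11.6, 11.3 and 15.4 CPM in KO Treg, 13, 15.5, 16.1 and 10.5 CPM in KO vehicle and 17.2, 16.7, 9.34 and 7.86 CPM in WT vehicle. WT vehicle alone spanned both the highest and the lowest of these values. Mrps34, a mitochondria-specific small-subunit protein, averaged 110 ± 13.3, 114 ± 17.2 and 113 ± 3.27 CPM, and Mrps36 averaged 84.7 ± 6.03, 79.9 ± 14.9 and 81.9 ± 21.2 CPM, each in KO Treg, KO vehicle and WT vehicle in that order (SD, n = 4 each). Exons of Mrps34 and Nme3 overlap on the same strand within the last 500 bases, so its counts are uncertain.

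The wider machinery of mitochondrial translation also held no gene that passed the edgeR test in any of the 3 comparisons. Of 6 ribosome proteins named outside the symbol rule, 2 were above 0 in KO vehicle against WT vehicle; among them Dap3, a GTP-binding small-subunit protein, averaged 72.2 ± 6.46 CPM in KO vehicle and 64.4 ± 2.48 CPM in WT vehicle. Of 21 genes of ribosome assembly and ribosomal RNA processing, 8 were above 0 (median -0.03). Mterf4, which acts with the methyltransferase Nsun4 in assembly, averaged 16 ± 2.3 CPM in KO vehicle and 21.4 ± 4.37 CPM in WT vehicle. Of 14 translation factors, 3 were above 0 (median -0.21), and Mtif3, an initiation factor, averaged 17.1 ± 2.21 CPM in KO vehicle and 21.2 ± 3.42 CPM in WT vehicle. Of 17 mitochondrial aminoacyl-tRNA synthetases, 4 were above 0 (median -0.13). Cars2, for cysteine, averaged 32.3 ± 4.39 CPM in KO vehicle and 24.8 ± 2.88 CPM in WT vehicle, whereas Yars2, for tyrosine, averaged 4.93 ± 0.779 CPM in KO vehicle and 7.23 ± 0.778 CPM in WT vehicle (SD, n = 4 each). Of 14 tested genes of mitochondrial transcription, message handling and DNA replication, 3 were above 0 (median -0.16). Among them Polg2, the accessory subunit of the mitochondrial DNA polymerase, averaged 2.20 ± 0.357 CPM in KO vehicle and 3.39 ± 0.878 CPM in WT vehicle. Of 10 tested nuclear regulators, 3 were above 0. Of 17 genes of import and mitochondrial content, 4 were above 0, and Cs, citrate synthase, averaged 125 ± 13.1 CPM in KO vehicle and 176 ± 45.8 CPM in WT vehicle.

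Beside the family's 14 of 77 above 0 in KO vehicle against WT vehicle, 2 of 74 nuclear subunits of oxidative phosphorylation (median -0.21) and 3 of 76 cytosolic ribosomal protein genes (median -0.13) were above 0. In KO Treg against KO vehicle the counts were 49 of 77, 69 of 74 (median 0.14) and 73 of 76 (median 0.09). In KO Treg against WT vehicle they were 23 of 77, 13 of 74 (median -0.07) and 23 of 76 (median -0.03). The comparisons share libraries, and genes of 1 list are not independent of each other, so these counts carry no test. Mean log2 CPM of the cytosolic list was highest in KO Treg 3 (9.59), WT vehicle 3 (9.57) and WT vehicle 4 (9.55), all of the higher number series. KO Treg 4 of that series was at 9.41. In the lower series WT vehicle was at 9.35 and 9.36, within the 9.25 to 9.38 of KO vehicle, which lies in that series alone. The part of the series in these counts was not tested. Of the translation factors 8 of 14, and of the synthetases 10 of 17, were above 0 in KO Treg against KO vehicle. Ears2, the synthetase for glutamate, averaged 5.80 ± 0.849 CPM in KO Treg and 8.0 ± 0.376 CPM in KO vehicle, and Noa1, a GTPase of ribosome assembly, 12.1 ± 1.5 CPM in KO Treg and 8.46 ± 2.81 CPM in KO vehicle (SD, n = 4 each). In KO Treg against WT vehicle, 0 of 14 genes of transcription, message handling and DNA replication were above 0 (median -0.09). The same held for 0 of 10 regulators (median -0.16). Ppargc1b, a coactivator of mitochondrial genes, averaged 34.9 ± 6.11 CPM in KO Treg and 54.4 ± 16.9 CPM in WT vehicle (edgeR adjusted p = 1, n = 4 each).

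The 77 genes lie on 17 chromosomes (GENCODE M21, GRCm38). Mrps15 (chr4:126046925-126055532) and Mrps18a (chr17:46110986-46128910), both on the + strand, share no exon bases with another gene. Mrps6 spans chr16:92058270-92112227 on the + strand and Mrpl47 chr3:32725397-32737605 on the - strand. In all, 32 of the 77 genes share exon bases with another gene, 27 of them with a gene on the opposite strand and 8 with one on the same strand. For 11 an exon of the other gene reaches into the last 500 bases of the gene. How many shared bases lie there was not counted. Of the genes described here, Mrpl10, Mrpl12, Mrpl53, Mrps7, Mrps18b and Mrps34 are among these 11, and their counts are uncertain. Mrps11 with Mrpl46 and Mrpl43 with Twnk share exon bases on opposite strands elsewhere, and Mrpl33 and Mrps18c share some on the same strand. Copies of these genes elsewhere in the genome were not examined. A protein-coding gene starts head to head within 1000 bases upstream, or with an overlap of up to 200 bases, at 23 of the 77 (29.9%), against 11.7% of the 11730 tested protein-coding genes placed. Examples of partners that are themselves mitochondrial are Sars2, the seryl-tRNA synthetase, at Mrps12 and Ndufs6, a subunit of complex I, at Mrpl36. Starts were taken as the outermost end of each gene record. Pairs that diverge from starts further inside, as may hold for Mrps11 and Mrpl46, can be missed.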

How the data were processed

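Total RNA of gonadal fat was measured with a QuantSeq 3' kit, per the labels' protocols. Raw read counts by gene symbol, 1 table for each library, are what the authors deposited. The submitters' processing notes name TopHat2 2.1.1, HTSeq 0.6.1, BWA 0.7.12, SAMtools 1.3.1 and build mm10. Not given in the sources used here are what each tool did, the annotation and the strand setting, so genes overlapping on opposite strands cannot be told apart. The tables held no row of mitochondrially encoded genes (0 symbols starting mt-).

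Genes kept by filterByExpr (12175 of 20632) were TMM-scaled and tested by the quasi-likelihood test (robust) of edgeR 4.0.16 in R 4.3.3, with all 12 libraries and 3 groups in 1 fit. Benjamini-Hochberg adjustment ran over all genes tested, and the threshold was 0.05. CPM are on TMM-scaled totals, log2 CPM used a prior count of 2, and the SE of a log2 fold change is its size over the square root of F. A check on simulated counts covered the edgeR test of KO vehicle against WT vehicle alone. Replicates are numbered in accession order, which pairs no samples.

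Members, gene lists and the rule for named genes were chosen with earlier results of these data known. The rule took, per comparison, called members and the 3 of smallest p in each direction, the 5 of highest and 2 of lowest CPM, the 3 most and 3 least variable, 9 genes with well-known places in the ribosome, and the 2 of smallest p of each pathway list, of which some are described. Mrps7, Mrps11 and Mrps31 were also named for a count of 6. Lists are described by counts and medians without a test. Alternatives were DESeq2 1.42.0, limma 3.58.1 voom, RLE, upper quartile and library-total scaling, no filter, 2 groups alone, the number series as a covariate or 67 alone, leaving out each library, and a fit without the robust option. Leaving out the libraries with placental transcripts or the most Ucp1 was chosen after seeing the data.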

Additional observations from a re-analysis of the deposited data

Results flagged for a closer look

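Within groups of 4, single libraries stood far from the other 3 for 6 genes. In all, 93 combinations of a group with a named gene or with a summary level of the family were examined, and chance flags about 1 in 20. Mrps28 was at 2.02 CPM in KO Treg 1, the highest of that group. Mrps22 was at 15.4 CPM in KO Treg 4, above the other KO Treg libraries. Mrps34 was at 140 CPM in KO vehicle 3, above the other KO vehicle libraries. Mrpl47 was at 24.2 CPM and Mrps12 at 72.5 CPM in WT vehicle 1, both above the other WT vehicle libraries. Mrpl43 was at 48.7 CPM in WT vehicle 4, below the other WT vehicle libraries.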

How the results depend on the processing

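The number of family genes called was 0 in every comparison and alternative except DESeq2 in KO vehicle against WT vehicle, which called 1. Over all genes, calls in KO vehicle against WT vehicle numbered 259 with DESeq2, 0 with the number series as a covariate, 0 in number series 67 alone, 3 without the 2 libraries with placental transcripts and 0 without the 3 libraries with the most Ucp1, and 1 to 125 when single libraries were left out. In KO Treg against KO vehicle the 1 call became 61 with DESeq2 and 0 with RLE scaling, 2 groups alone, the covariate, series 67 alone, the fit without the robust option, either set of libraries left out, and each single library left out (0 to 0). In KO Treg against WT vehicle DESeq2 called 1 gene. The median log2 fold change of the family in KO Treg against KO vehicle was 0.17 without the 3 libraries with the most Ucp1, the one median to move by more than the SD of library means within groups (0.13). The directions of named genes that turned were those of Mrpl17 in KO vehicle against WT vehicle (-0.048 in series 67 alone) and, in KO Treg against KO vehicle without the 3 libraries with the most Ucp1, Mrps18b (0.0098) and Mrps18c (0.045). The cause of these moves was not tested. Mrps15, Mrps18a and Mrpl47 were lower in KO vehicle than in WT vehicle under all 24 alternatives. These genes were chosen for the smallest p on the lower side of this same comparison, and the alternatives share libraries. Their constant direction therefore adds no support. No paired analysis was possible because the labels give no replicate number that the groups share. The precision was limited by the median SE of 0.15 on the log2 scale and, for Mrps28, by 3 to 33 counts per library.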
